A study of Homo sapiens with 6 samples.

Results

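The keratins examined here are the 10 basal, stress and simple keratin genes KRT5, KRT14, KRT15, KRT6A, KRT6B, KRT16, KRT17, KRT8, KRT18 and KRT19. Members were taken by gene name, so every row of the authors' deposited table carrying 1 of these names was used, which gave 37 of its 82428 coding sequences and 10 of its 20660 gene names. RNA sequencing was done on FaDu, a human squamous carcinoma line from the hypopharynx, treated with DMSO, the vehicle, or with BB608, a compound known here only by its code name, and the labels list no other allele or agent. Each group had 3 biological replicates of this 1 line, and no dose or treatment time was found in the labels. The table gives 1 FPKM value per group and coding sequence (fragments per kilobase of sequence, scaled to library size), so no value per library, no spread between libraries and no sequencing depth could be shown. In such bulk RNA, fewer cells expressing a keratin and less keratin RNA per cell cannot be told apart.

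Keratins are the intermediate filament proteins of epithelial cells. A filament is built from heterodimers of a type I and a type II keratin in equal amounts, so an epithelial cell needs members of both types. KRT5 (type II) with KRT14 and KRT15 (type I) marks the basal layer of stratified epithelium. KRT6A and KRT6B (type II) with KRT16 and KRT17 (type I) are induced in wounded, stressed or hyperproliferating epithelium, and KRT8 (type II) with KRT18 and KRT19 (type I) is typical of simple epithelium and is often gained in carcinomas. The genes lie in 2 clusters, and in hg19 the loci in the authors' deposited table run, for type II, from KRT6B at chr12:52840434-52845910 to KRT6A at chr12:52880957-52887041, KRT5 at chr12:52906987-52914471 and KRT8 at chr12:53290969-53347611. KRT18, the type I gene in the type II cluster, is listed with the same locus as KRT8. The other type I genes are KRT15 at chr17:39669988-39679479, KRT19 at chr17:39679802-39684560, KRT14 at chr17:39738530-39743173, KRT16 at chr17:39765935-39772151 and KRT17 at chr17:39775592-39943183, the last locus also holding JUP and other genes.

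How far the reads of these genes can be told apart depends on their sequences, so the stretches where the closest pairs differ most are shown first. Each is a 120-base stretch of the coding strand from the transcripts of GENCODE release 29 (GRCh38), lower case where both genes are identical and in capitals where they differ, with positions counted from the first base of the start codon. The stress keratins KRT6A and KRT6B were 97.52% identical over their 1692 coding bases, and even their most different stretch, coding bases 626 to 745 in exon 2 of both, held only 10 mismatches.
KRT6A: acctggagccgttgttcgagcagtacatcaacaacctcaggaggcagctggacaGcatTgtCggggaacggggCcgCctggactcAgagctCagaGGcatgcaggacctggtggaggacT
KRT6B: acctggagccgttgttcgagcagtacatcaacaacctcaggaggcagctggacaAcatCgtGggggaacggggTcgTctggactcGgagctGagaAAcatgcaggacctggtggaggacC

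Their longest identical run was 269 bases. The basal keratin KRT14 and the stress keratin KRT16 were 85.2% identical, with a longest identical run of 158 bases, and their most different stretch, bases 526 to 645 of KRT14 and 532 to 651 of KRT16 in exons 2 and 3, held 34 mismatches.
KRT14: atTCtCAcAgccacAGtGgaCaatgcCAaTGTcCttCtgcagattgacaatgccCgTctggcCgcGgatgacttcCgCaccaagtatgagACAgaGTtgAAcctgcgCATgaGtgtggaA
KRT16: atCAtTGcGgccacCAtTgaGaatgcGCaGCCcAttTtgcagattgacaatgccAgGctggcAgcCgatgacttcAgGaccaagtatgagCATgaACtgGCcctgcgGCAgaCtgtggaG

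Over the whole coding sequence, 52.8% of the 50-base windows of KRT6A and 62.6% of those of KRT6B also occurred, letter for letter, in a GENCODE transcript of another gene on either strand, chiefly KRT6C. For 100-base windows the shares were 24.2% and 32.4%. KRT8 shared 48.4% of its 50-base windows and 8.89% of its 100-base windows, with the pseudogene KRT8P3 accounting for 28.2% and 5.26% of its windows. KRT18 shared 58.0% and 20.4%, and its shared 100-base windows all lay in KRT8 transcripts on the opposite strand, with 0% on its own strand. KRT14, KRT16 and KRT17 shared 24.6%, 23.9% and 17.2% of their 50-base windows. KRT5 shared 5.75%, KRT19 2.09% and KRT15 1.29%. Of 100-base windows KRT16 shared 8.41%, KRT14 7.06%, KRT5 2.09%, KRT17 0.42%, and KRT19 and KRT15 0%, so the order of KRT5 and KRT17 turns with the window length. The labels give neither the read length nor whether counting used the strand that the library kit marks. The values of the members other than KRT15 and KRT19, which shared least at both lengths, therefore carry an uncertainty of read assignment that the table does not show.

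The line expressed the basal keratin KRT5 and the simple keratins KRT8, KRT18 and KRT19 at high levels in both groups. The other basal keratins, KRT14 and KRT15, were far lower, and of the stress set only KRT17 was among the abundant keratins. Summed over its 6 coding sequences, KRT5, the main type II keratin of the line, had a gene sum of 2334 FPKM in DMSO against 2472 in BB608, which placed it 12th of all gene names by mean gene sum. KRT17, at 893 and 892 FPKM, was the most abundant type I keratin in DMSO. KRT18 stood at 797 and 925 FPKM, and so was the most abundant type I keratin in BB608. With no spread between libraries, the order of these neighbours cannot be settled. KRT8 had 705.7 FPKM with DMSO against 689 with BB608, and KRT19 had 410.01 and 464 FPKM. After these 5 genes the levels dropped, to 62.8 and 66.8 FPKM for KRT14, 49.2 and 55.7 FPKM for KRT15 and 21.8 and 21.3 FPKM for KRT6A. KRT16 followed with 6.42 FPKM in DMSO against 3.30 in BB608. KRT6B was listed at 0.0610 and 0.0640 FPKM and was not tested by the authors.

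**Figure D1:**
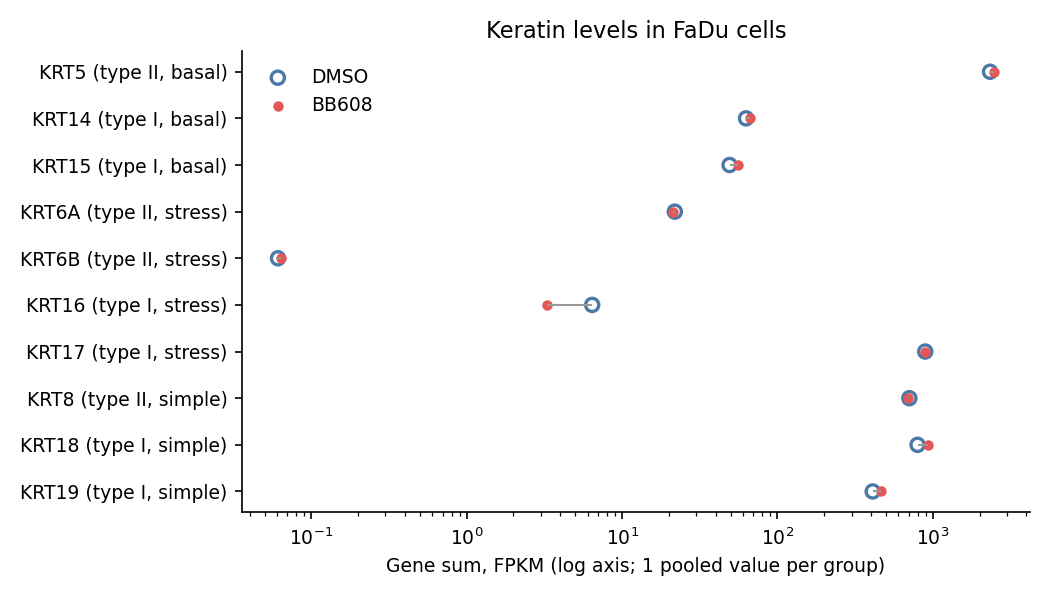
Gene sums of the 10 keratins in FPKM on a log axis, open circles for DMSO and filled points for BB608, 1 pooled value per group and so no error bars. KRT5 lies highest at 2334 and 2472 FPKM, KRT6B lowest at 0.0610 and 0.0640 FPKM, and only KRT16 shows a visible gap, from 6.42 to 3.30 FPKM.

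The labelled line was checked against marker genes. The epithelial markers besides KRT5 of a fixed list, EPCAM, CDH1, TP63, ITGB4, ITGA6 and PERP, had gene sums between 20.6 FPKM (CDH1, DMSO) and 288 FPKM (PERP, DMSO). The 8 fibroblast markers summed to 1.03 FPKM in DMSO against 0.883 in BB608, with LUM at 0 in both groups. Of 7 blood and endothelial markers in the table, CD3E and HBB were at 0 in both groups, PTPRC was at 0.00650 and 0.00130 FPKM, and CD68 and CDH5 made up most of the sum of 26.9 and 24.6 FPKM. Of the glandular markers, KRT7 had 0.550 and 0.836 FPKM and KRT20 0.0705 and 0.0402 FPKM. TTF1, also in that list, names a transcription termination factor and marks no gland.

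No tested keratin sequence passed the authors' threshold for BB608 against DMSO. Of the 37 coding sequences 26 were tested, from 9 of the 10 genes. In the authors' deposited table none of these passed a Cuffdiff q of 0.05 (0 of 26), beside 0.354% of all 34474 tested coding sequences. At an unadjusted p below 0.05 there were 2 of 26, 1 each of KRT16 and KRT19, beside 3.31% of all tested coding sequences. With so few sequences neither the count of 0 nor that of 2 can be set apart from its background share. Among the tested member sequences 15 were higher and 11 lower in BB608. By gene sum 6 members were higher and 4 lower. The 9 members with a tested sequence and at least 1 FPKM, the filter used here for gene sums, included 5 that were higher, and over all 10859 genes that passed this filter 57.6% were higher. Over the 10 gene sums the log2 fold (BB608 over DMSO) had a median of 0.08, and that of all genes passing the filter was 0.03.

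**Figure D2:**
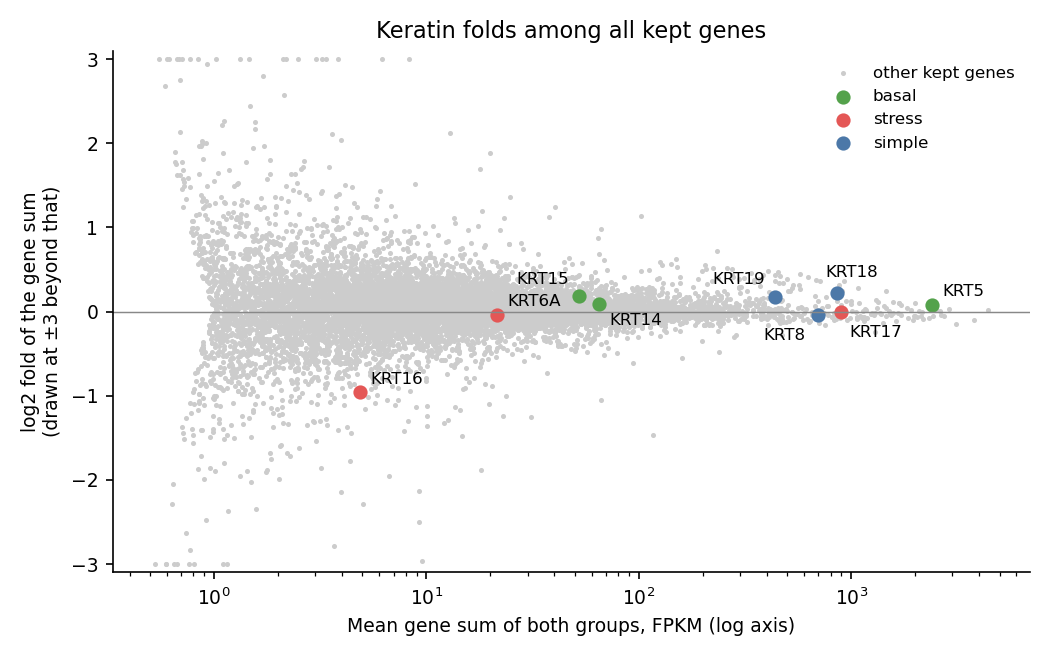
The log2 fold of each gene sum, BB608 over DMSO, against the mean gene sum in FPKM on a log axis, for the 10859 genes that passed the filter, with the 9 keratins among them coloured by class and values beyond 3 drawn at 3. KRT16 lies at -0.96, and the other 8 keratins lie between -0.04 and 0.22, inside the cloud of genes.

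None of the basal keratin sequences passed the threshold, beside 0.354% of all tested coding sequences. The best measured basal sequences had narrow intervals around 0. In the authors' deposited table the most abundant coding sequence of KRT5, the type II keratin mutated in epidermolysis bullosa simplex, had 817 FPKM with DMSO against 868 with BB608. Its log2 fold was 0.09 with an implied SE of 0.12, the error derived from the authors' statistic and 1 conversion factor common to all rows. The 95% interval of this fold ran from -0.15 to 0.33, so a change of 1 log2 in either direction lies outside it. The other 5 coding sequences of KRT5 are listed in the authors' deposited table with 743, 440.4, 292, 31.5 and 9.66 FPKM for DMSO, and with 702, 490.1, 324, 72.4 and 15.4 FPKM for BB608. Their implied SEs grew from 0.34 for the second to 1.77 for the sixth. The fifth, at a log2 fold of 1.20, is therefore poorly measured, and its p in the authors' deposited table was 0.564.

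KRT14, the type I partner of KRT5, has 1 coding sequence, for which the log2 fold was 0.09 with a 95% interval from -0.14 to 0.31. The authors' deposited table gives it a Cuffdiff p of 0.438. KRT15, a type I keratin of basal and stem-like keratinocytes, had 33.1 FPKM with DMSO against 39.9 with BB608 for its most abundant sequence. Its log2 fold was 0.27 with an interval from -0.17 to 0.70, and the authors' deposited table gives it a Cuffdiff p of 0.229. The second and the third sequence of KRT15 had log2 folds of -0.08 and -0.14, the fourth had 0.52 with an implied SE of 0.90, and 2 more were not tested. The best measured sequences of KRT5 and KRT14 thus had nearly the same fold, and those of KRT15 lay on both sides of 0.

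The stress keratins differed in their folds. In the authors' deposited table KRT6A, a wound-induced type II keratin, had 21.8 FPKM with DMSO against 21.3 with BB608. Its log2 fold was -0.04, with a 95% interval from -0.28 to 0.21. KRT16, its usual type I partner, had the lowest fold of the 10, at -0.96 by gene sum, the 1.41 percentile of all genes passing the filter. Its first sequence had 3.56 FPKM with DMSO against 1.50 with BB608, a log2 fold of -1.25, and its Cuffdiff p was 0.0646 in the authors' deposited table. Its second had 2.85 against 0.896 FPKM, a log2 fold of -1.67, with a Cuffdiff p of 0.0203 and a q of 0.997, as the authors' deposited table lists them. The implied SEs of these folds were 0.57 and 0.68, several times those of KRT6A or KRT14. The third KRT16 sequence is listed at 7.91e-05 FPKM for DMSO and 0.908 FPKM for BB608 in the authors' deposited table, at a Cuffdiff p of 0.174. The sequences of this gene therefore did not all point the same way, and without the third, an alternative chosen after its values were seen, the gene sum had a log2 fold of -1.42. KRT16 is also the least abundant tested member, and none of its sequences passed the adjustment over all coding sequences.

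KRT17, a type I keratin induced in wounds and squamous tumours, had 4 tested sequences. The most abundant had 599 FPKM with DMSO against 567 with BB608 in the authors' deposited table, and its log2 fold was -0.08 (implied SE 0.23). The second had 265 against 302 FPKM, a log2 fold of 0.19 (implied SE 0.22). The third had 28.3 against 23.8 FPKM and an implied SE of 1.17. The fourth is listed at 1.06 FPKM for DMSO and 7.78e-46 FPKM for BB608 in the authors' deposited table, at a Cuffdiff p of 0.277. The 2 main sequences thus lay on opposite sides of 0, within their errors, and the gene sum had a log2 fold of -0.0011.

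No sequence of the simple keratins passed the threshold, beside 0.354% of all tested coding sequences. Both KRT8 and KRT19 had sequences on either side of 0. KRT8, the type II keratin of simple epithelium, had 3 tested sequences, and in the authors' deposited table these had 377, 263 and 66.0 FPKM with DMSO against 252, 335 and 102 FPKM with BB608. Their log2 folds were -0.58, 0.35 and 0.63 with implied SEs of 1.23, 0.30 and 0.66, so the most abundant KRT8 sequence is poorly measured and the best measured one was positive. The KRT8 gene sum had a log2 fold of -0.04. The 7 further KRT8 rows were not tested, and the highest of them had 0.00385 FPKM in BB608. KRT18, the usual partner of KRT8, had 797 FPKM with DMSO against 925 with BB608 for its main sequence. Its log2 fold was 0.22 with a 95% interval from -0.11 to 0.54, and the authors' deposited table gives it a Cuffdiff p of 0.189. Its second sequence had 0.466 and 0.571 FPKM.

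KRT19, the smallest keratin and one that lacks most of the tail domain, had the lowest p of the members. In the authors' deposited table its most abundant sequence had 279 FPKM with DMSO against 338.5 with BB608, a Cuffdiff p of 0.00945 and a q of 0.857. The log2 fold was 0.28, with an implied SE of 0.11 and a 95% interval from 0.07 to 0.49. It did not pass the adjustment over all tested sequences, although its interval taken alone leaves out 0. Its second sequence had 131 against 125 FPKM, a log2 fold of -0.06 (implied SE 0.26), and the gene sum had 0.18.

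**Figure D3:**
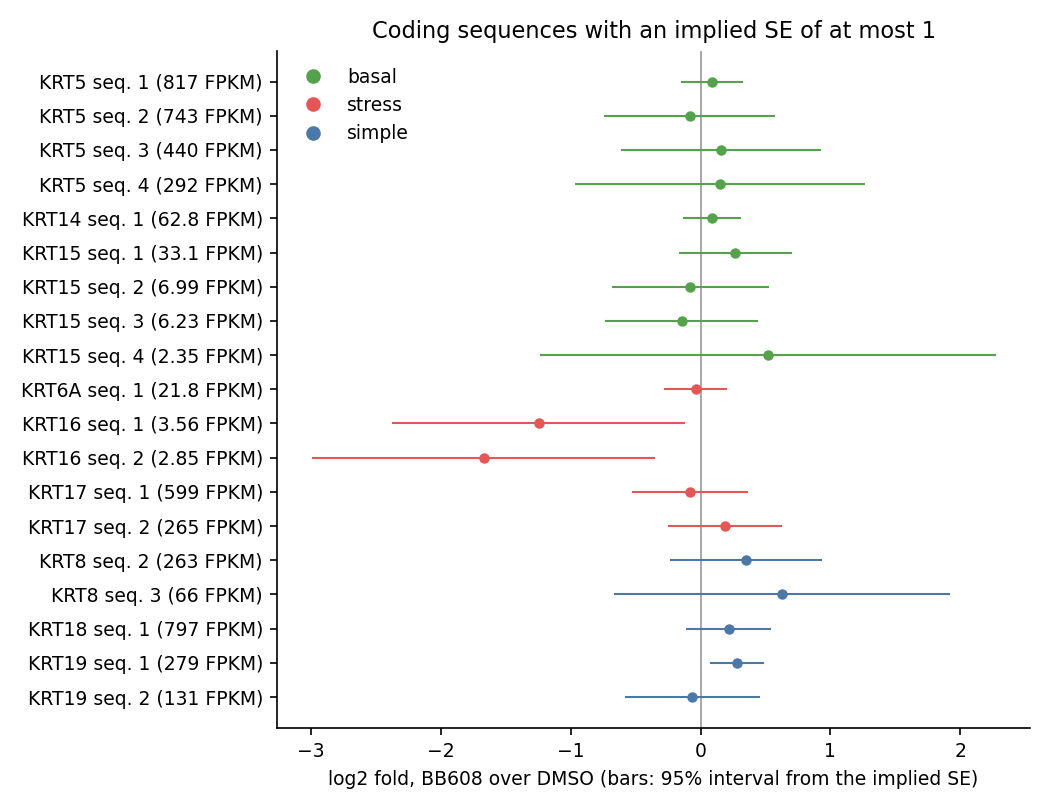
The log2 fold of 19 tested keratin coding sequences, BB608 over DMSO, with 95% intervals from the implied SE, coloured by class, and the DMSO level in FPKM beside each name. The other 7 tested sequences have an implied SE over 1 or none; the 2 KRT16 sequences and the first of KRT19 have intervals that leave out 0, for the first of KRT16 against its p of 0.0646 because 1 conversion factor serves all rows.

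The division of the gene sum among coding sequences differed between the groups in no common direction. The first KRT8 sequence held 53.4% of the KRT8 sum with DMSO and 36.6% with BB608, while the second held 37.3% and 48.6%. The first KRT19 sequence held 68.1% and 73.0%, the first KRT15 sequence 67.4% and 71.6%, the first KRT17 sequence 67.1% and 63.5%, and the first KRT5 sequence 35.01% and 35.1%. The second KRT5 sequence held 31.8% and 28.4%, and the fifth 1.35% and 2.93%. In KRT16 the third sequence held 0.00123% and 27.5%. No error can be given for these shares.

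**Figure D4:**
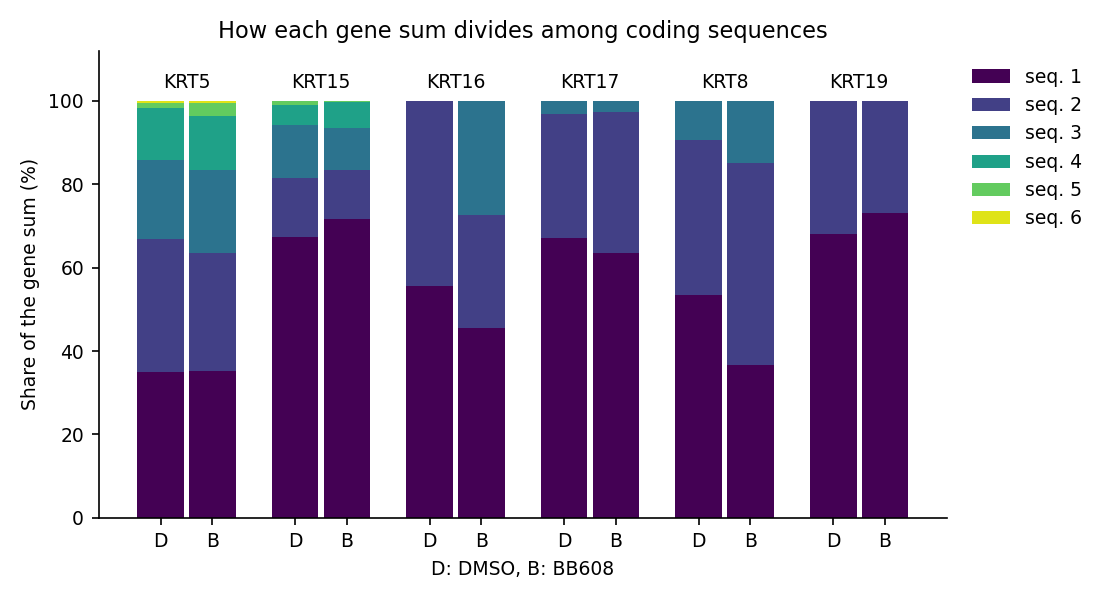
Share of each gene sum in percent held by its coding sequences, numbered by DMSO level, for 6 keratins with more than 1 sequence of weight, in DMSO (D) and BB608 (B). The first sequence of KRT5 holds 35.01% and 35.1% and its second 31.8% and 28.4%, and the first of KRT8 holds 53.4% and 36.6%.

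Partner by partner, the type I and type II levels did not match. FPKM is corrected for length, so levels of different keratins can be set side by side. That does not correct for sequence shared between genes, so the ratios below carry the uncertainty of read assignment described above. KRT5 exceeded KRT14 by 37.2 times in DMSO and 37.04 times in BB608, and exceeded KRT14 and KRT15 together by 20.8 and 20.2 times. KRT17 stood at 14.2 times KRT14 in DMSO and 13.4 times in BB608. Against KRT14, KRT15 and KRT17 together the KRT5 excess was 2.32 times in DMSO and 2.44 times in BB608. On the stress side the imbalance ran the other way. KRT16 and KRT17 together held 41.1 times the FPKM of KRT6A and KRT6B in DMSO and 42.0 times in BB608, almost all of it KRT17. KRT6A exceeded KRT16 by 3.40 times in DMSO and 6.44 times in BB608. The KRT16 sum was low, at 6.42 and 3.30 FPKM, and its first and second sequences had implied SEs of 0.57 and 0.68. Of its BB608 sum, 0.908 FPKM came from a sequence near 0 in DMSO, so the change of this ratio is poorly measured.

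The simple pair KRT8 and KRT18 was the closest to equal, with KRT18 at 1.13 times KRT8 in DMSO and 1.34 times in BB608. With KRT19 added, the type I side was 1.71 and 2.02 times KRT8. Over all 10 members, the 4 type II genes summed to 3062 FPKM in DMSO and 3182 FPKM in BB608, and the 6 type I genes to 2218 and 2407 FPKM. The ratio of type II to type I was 1.38 in DMSO and 1.32 in BB608, a log2 change of -0.06. This change was -0.22 with only the most abundant tested sequence of every gene, and -0.14 without the stress keratins. The ratio was 1.39 and 1.33 when the other type I and type II keratins were included. Thus the totals lay closer to parity than the basal or stress partners did. These ratios are descriptions of 2 pooled values and carry no test.

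**Figure D5:**
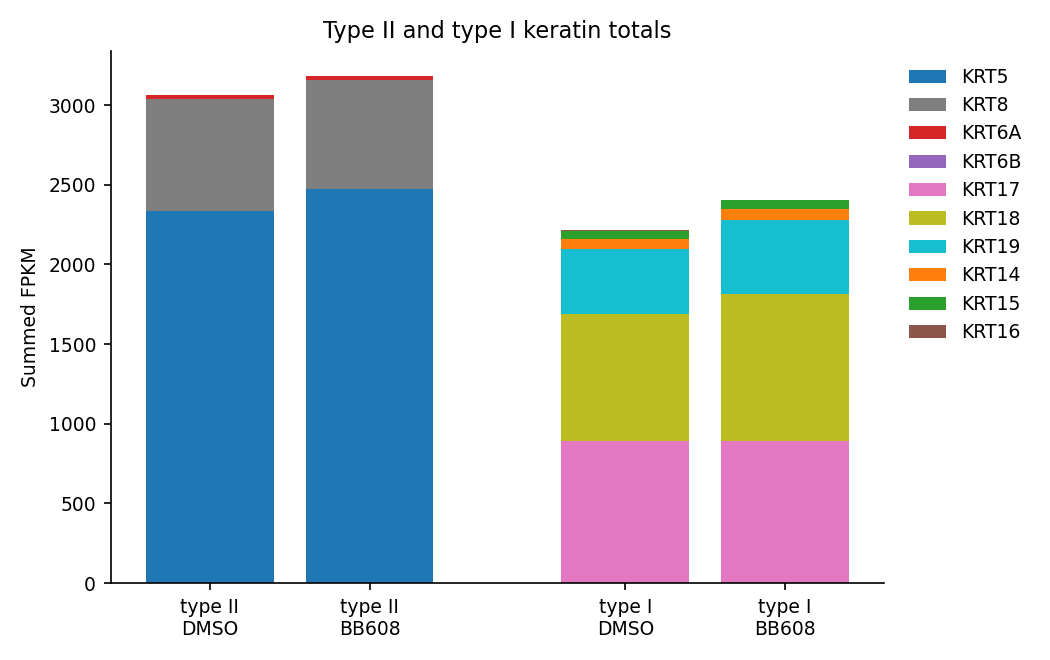
Summed FPKM of the 4 type II and the 6 type I keratins in DMSO and BB608, stacked by gene, 1 pooled value per group. KRT5 makes up 76.2% of the type II sum in DMSO, while KRT17, KRT18 and KRT19 make up 40.3%, 35.9% and 18.5% of the type I sum.

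Within the type II sum KRT5 held 76.2% in DMSO and 77.7% in BB608, and KRT8 held 23.1% and 21.6%. Within the type I sum KRT17 held 40.3% and 37.1%, KRT18 35.9% and 38.4%, and KRT19 18.5% and 19.3%. KRT14 held 2.83% and 2.77% of it. By class, the 3 basal genes, chiefly KRT5, held 46.3% of all member FPKM in DMSO and 46.4% in BB608. The 4 stress genes held 17.5% and 16.4%, and the 3 simple genes 36.2% and 37.2%. The 10 keratins together made up 1.08% and 1.11% of all FPKM.

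Outside the 10 members, keratins were scarce. Of 45 other type I, type II and hair keratin genes, 40 stayed under 1 FPKM in both groups. A tested sequence existed for 7 of them, and 0 of these genes had a q below 0.05 by Cuffdiff in the authors' deposited table, beside 1.06% of all 11429 genes with a tested sequence. At an unadjusted p below 0.05 in that table there were 3 of the 7, namely KRT80, KRT4 and KRT75, beside 9.49% of all genes with a tested sequence. KRT80, a type II epithelial keratin, was the most abundant of the 45 at 28.6 FPKM with DMSO and 31.7 with BB608. In the authors' deposited table a sequence of KRT80 had 13.9 against 20.5 FPKM, with a Cuffdiff p of 0.00115 and a q of 0.224. KRT4 and KRT13, the partners of non-keratinizing mucosa, had 6.56 and 6.93 FPKM with DMSO and 7.13 and 5.92 FPKM with BB608. The KRT4 sequence behind that count went the other way than its gene sum, at 0.871 against 0.309 FPKM, with a Cuffdiff p of 0.00295 and a q of 0.435 listed in the authors' deposited table. KRT10, the type I keratin of differentiating epidermis, had 6.49 and 6.08 FPKM, and its usual type II partner KRT1 is listed at 0. KRT75 had 1.36 and 1.77 FPKM, KRT222 had 0.565 and 0.629 FPKM, and KRT6C, the gene closest in sequence to KRT6B, had 0.0736 and 0.0294 FPKM. The most abundant hair keratins were KRT32 at 0.420 and 0.382 FPKM, KRT86 at 0.282 and 0.416, KRT81 at 0.194 and 0.139 and KRT83 at 0.0971 and 0.203 FPKM.

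A list of proteins that link keratin filaments to junctions and to other cytoskeletal systems, or bind keratins, was tested in 16 of 16 listed genes, of which 1 rose and 0 fell, beside 1.06% of all tested genes with a call in either direction. In PLEC, which encodes the cytolinker plectin, 1 of 5 tested sequences rose from 4.22 to 8.94 FPKM, by 1.08 on the log2 scale, with a Cuffdiff q of 0.0424 as given in the authors' deposited table, while its gene sum had 0.19. EPPK1, which encodes the keratin-binding epiplakin, had a log2 fold of 0.34 (implied SE 0.10), and the authors' deposited table lists a Cuffdiff p of 0.0005 with a q of 0.118. DSP, the desmosomal anchor of keratin filaments, had gene sums of 91.5 and 95.03 FPKM. SFN, a 14-3-3 protein that binds keratins, had 219 and 227 FPKM, and YWHAZ, another 14-3-3 protein, 1056 and 1051 FPKM. Over the 16 gene sums the log2 folds had a median of 0.07 and 13 of 16 were higher in BB608, beside a median of 0.03 and 57.6% over all genes passing the filter. The 13 include KRTCAP2, which despite its name and its place in the list encodes a subunit of the oligosaccharyltransferase and no filament linker. It is listed near 0 in DMSO and has no usable fold.

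Of 16 transcription factors known to act on keratin genes, 13 had a tested sequence and 0 passed a q of 0.05 by Cuffdiff in the authors' deposited table. Their gene sums had a median log2 fold of 0.01, beside 0.03 over all genes passing the filter. By gene sum 7 were higher and 6 lower in BB608, beside 57.6% higher over all these genes. The most abundant of these factors were RELA, the NF-kB subunit, at 74.5 and 84.5 FPKM and NFE2L2, which encodes NRF2, at 63.7 and 59.5 FPKM. They were followed by the epithelial factors ELF3 at 59.6 and 54.8 FPKM and GRHL2 at 39.0 and 57.9 FPKM. RELA, NFE2L2 and EHF were the 3 of 13 with a sequence at an unadjusted p below 0.05 in the authors' deposited table, beside 9.49% of all genes with a tested sequence. RELA and NFE2L2 have 9 tested sequences each and EHF has 5. By sequence the count was 3 of 57, beside 3.31% of all tested coding sequences. The sequences of these 3 genes did not follow the gene sums. That of RELA had 6.70 FPKM with DMSO against 4.20 with BB608, and that of NFE2L2 had 4.09 against 8.21 FPKM. That of EHF had 1.21 against 0.00207 FPKM, with an implied SE of 19.2, beside gene sums of 17.8 and 19.6 FPKM.

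Among 10 other intermediate filament genes 4 were tested and 1 rose, the nuclear lamin LMNB2, from 17.9 to 31.2 FPKM at a log2 fold of 0.80, with a Cuffdiff q of 0.0154 as listed in the authors' deposited table. The share of genes with a call was 1.06% over all those tested. The other lamins LMNA, at 123 and 133 FPKM, and LMNB1, at 18.3 and 20.7 FPKM, did not pass. The 7 cytoplasmic genes of this list all lay under 1 FPKM in both groups, the highest being the neuronal filament gene INA at 0.769 and 0.866 FPKM. VIM, which encodes the mesenchymal filament protein vimentin, had 0.0887 and 0.108 FPKM and was not tested. Apart from the lamins, the intermediate filament genes of the lists used here at 1 FPKM or more were thus those of 9 of the 10 keratins described and of KRT80, KRT4, KRT13, KRT10 and KRT75.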

How the data were processed

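Total RNA of 6 FaDu libraries, 3 per group, was sequenced after ribosomal RNA removal with a stranded kit, per the labels. TopHat2 2.0.11, Cufflinks 2.2.1, Cuffdiff and hg19 are named in the submitters' processing notes; no annotation is named there. The authors deposited 1 FPKM per coding sequence and group, with a test score and the p-value and q-value of their test. The authors' q matched a Benjamini-Hochberg adjustment of their p-values to within 5.23e-07. Depth is unknown. Loci are printed as deposited.

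Log2 folds were computed from the deposited FPKM, and gene sums add all coding sequences of a name. The implied SE is the fold divided by the authors' statistic and by 1.73, the median ratio of normal quantile to statistic over 33027 rows; it needs over 0.001 FPKM in both groups. Intervals use 1.96 SE and rest on the authors' model. This conversion and the adjustment were run on simulated data built with 1 constant factor, which checks the arithmetic only. In the authors' rows this factor had quartiles of 1.64 and 1.78, so an interval can differ from the p of its row. Genes were kept with a tested sequence, no failed row and a single name. Their gene sum also had to be nonzero in both groups and 1 FPKM or more in either group.

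The table holds only pooled values, so the foreseen limma test could not be run and the authors' q under 0.05 served instead. All members were named. Of the other keratin, linker, transcription factor and filament lists, called genes and the 4 most abundant were named. The marker lists did not follow this rule, and LUM, CD3E, HBB and PTPRC were picked from them with their values known. KRT1, KRT6C, EPPK1, EHF, KRTCAP2 and VIM were also named after their values were seen. Members and lists were chosen with earlier results of these data known. Shared windows and identities came from GENCODE 29 with Biopython 1.88; the other steps used Python 3.11.15, numpy 2.4.6, pandas 2.3.3 and scipy 1.17.1.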

Additional observations from a re-analysis of the deposited data

How the results depend on the processing

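No paired analysis was possible because the deposited values are already pooled by group, and leaving out each replicate was not run for the same reason. The count of 0 called keratin sequences was also 0 with the adjustment restricted to sequences of at least 1 or at least 5 FPKM, and was 2 at an unadjusted p under 0.05, by that threshold's own construction. The log2 change of the type II to type I ratio, -0.06, was -0.22 with only the most abundant sequence of each gene, where KRT8 enters with a sequence of large error, and -0.14 without the stress keratins. Between 5 and 6 members were higher in BB608 under the alternatives tried, and the counts of 5 came from settings that leave out the untested KRT6B. Scaling by the median fold shifted all folds by 0.0349. Of 48 settings of single keratin folds, 48 stayed within 1 implied SE and 0 changed sign. The SE used was that of each gene's most abundant tested sequence, not of its gene sum. KRT6B has no SE and was given the median SE of the other members. For genes with 1 sequence several settings equal the main value, and for KRT16 and KRT8 the SE is wide. Taken by its most abundant sequence, the fold of KRT8 was -0.58 in place of -0.04. Low abundance limits KRT6B and KRT16 most.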
